A study of Homo sapiens with 6 samples.

Results

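The regions occupied by RPB1 and by Ser2-phosphorylated RPB1 (pSer2) were compared within SHP-1 KO HepG2 cells, with 1 ChIP-seq library for each antibody. The members are all regions of the 2 SHP-1 KO lists, 41605 for RPB1 and 81012 for pSer2, together 122617 of the 271336 regions in the 4 lists of the series. They were assigned to 15012 genes, out of 16428 genes with a region in any list. HepG2 is an established human hepatoma line. The SHP-1 KO cells carry a CRISPR knockout of PTPN6, the gene of the protein-tyrosine phosphatase SHP-1, and the WT cells are the CRISPR control, made with a nontargeting guide. Both were untreated and come from single-cell clones selected with puromycin, and which clone was used for ChIP-seq is not given in the sources used here. RPB1 was recovered with an antibody to its C-terminal domain and pSer2 with an antibody to that domain phosphorylated on Ser2, and each library was set against the input DNA of the same cells. The WT lists, 46045 RPB1 and 102674 pSer2 regions, are used here only as values beside the SHP-1 KO values.

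RPB1 is the largest subunit of RNA polymerase II. Its C-terminal tail is a repeated heptad whose serines are phosphorylated as transcription proceeds. Polymerase often pauses just downstream of the gene start, and phosphorylation of Ser2 by CDK9 and CDK12 with their cyclins marks the elongating enzyme and increases toward the 3′ end, where it helps to recruit the machinery that cleaves and polyadenylates the RNA. An RPB1 region at a promoter without pSer2 and an RPB1 region with pSer2 along the gene are thus different readings of the same enzyme. How well the antibody to RPB1 recovers the phosphorylated and the unphosphorylated form was not tested here.

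A region is an interval in which MACS2 found more reads than in the input, and its fold enrichment is the enrichment over input at the summit, a ratio. The authors assigned each region to the gene whose transcript start is nearest, and ChIP-seq has no strand, so a region over one gene could be assigned to its neighbor. The lists carry no read counts and the depth is unknown, so folds of different lists are not on one scale and are given side by side as values only. With 1 library per antibody there is no replicate spread and no test is possible. Intervals are 95% Wilson confidence intervals and cover counting error only, and none of the differences between antibodies or cell types could be checked against replicates.

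Promoter and gene-end sequences of 6 genes are given here because the genes mark the ends of the range described below. SLC16A10 (a transporter of aromatic amino acids), UBE2D1 (a ubiquitin-conjugating enzyme) and HBEGF (a ligand of the EGF receptor) had strong promoter RPB1 and no assigned pSer2 region in either cell type. P4HB (protein disulfide isomerase), ALB (albumin) and AHSG (fetuin-A, a liver plasma protein) had some of the strongest pSer2 regions. The first lines are the 100 bases before the RefSeq gene start (GRCh38.p14), on the strand of the gene and 5′ to 3′. Capitals mark 4 motifs. The GC box is GGGCGG, or CCGCCC on the other strand. The CCAAT box is CCAAT, with ATTGG as its reverse. The ETS core is CCGGAA, and TTCCGG in reverse. The TATA box is TATAAA where it lies 40 to 21 bases upstream of the start.
SLC16A10, chr6:111087403-111087502, plus strand: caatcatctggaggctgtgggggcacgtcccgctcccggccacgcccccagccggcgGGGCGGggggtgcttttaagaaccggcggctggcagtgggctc
UBE2D1, chr10:58334906-58335005, plus strand: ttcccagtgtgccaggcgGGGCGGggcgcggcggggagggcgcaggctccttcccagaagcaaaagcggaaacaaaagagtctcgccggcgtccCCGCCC
HBEGF, chr5:140346604-140346703, minus strand: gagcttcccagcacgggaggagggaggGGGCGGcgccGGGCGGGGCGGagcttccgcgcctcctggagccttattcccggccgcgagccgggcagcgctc
P4HB, chr17:81860536-81860635, minus strand: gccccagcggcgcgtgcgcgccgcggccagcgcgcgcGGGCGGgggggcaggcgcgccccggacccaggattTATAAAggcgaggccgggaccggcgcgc
ALB, chr4:73404187-73404286, plus strand: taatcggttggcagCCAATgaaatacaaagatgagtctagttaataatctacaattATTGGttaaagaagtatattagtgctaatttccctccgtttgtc
AHSG, chr3:186612960-186613059, plus strand: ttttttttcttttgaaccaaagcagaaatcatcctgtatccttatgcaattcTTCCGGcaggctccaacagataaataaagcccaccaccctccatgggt
The 3 promoters without pSer2 each held a GC box in these 100 bases, and of the other 3 only P4HB did, together with a TATA box in the window. These 6 genes do not stand for their classes. In the longer promoter sequences compared below, the GC box was in 72.8% with RPB1 alone and 71.1% with both.

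The next lines are the last 30 bases of the same genes in hg38, with the polyadenylation signal AATAAA or its variant ATTAAA in capitals. They are given because pSer2 lay over and beyond the gene end at the last 3 genes.
SLC16A10, chr6:111231165-111231194, plus strand: aaatgcAATAAAaactttttagcaaattcc
UBE2D1, chr10:58370719-58370748, plus strand: ttttttctttATTAAAgtttttgaaacttg
HBEGF, chr5:140332843-140332872, minus strand: aatccaAATAAAgataacccttattccata
P4HB, chr17:81843166-81843195, minus strand: acacattggccaAATAAAgttgaaatttta
ALB, chr4:73421453-73421482, plus strand: tgataattctgAATAAAagaacaaaaacca
AHSG, chr3:186621289-186621318, plus strand: cttccttAATAAAgaaggttctaagctgaa
All 6 ends held one of these signals. From 2 kb before to 5 kb past the end, SLC16A10, UBE2D1 and HBEGF had 0 pSer2 regions in SHP-1 KO cells. The strongest pSer2 region there had its summit 382 bp past the end of P4HB, with a fold of 36.4. At ALB the summit lay 470 bp past the end (fold 18.6) and at AHSG 701 bp past the end (fold 29.4).

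Liver marker genes carried regions of both antibodies. Of 11 HepG2 and liver marker genes, 9 had both a promoter RPB1 region and a pSer2 region, among them ALB, AFP, APOB and SERPINA1. APOA1 had pSer2 regions and no assigned RPB1 region, and FOXA2, a liver transcription factor, had none assigned, although all 11 genes had pSer2 over the span and RPB1 over the span or 1 kb upstream. Of 19 markers of blood, neuron, glia, muscle, fibroblast, endothelium, squamous epithelium and islet, 15 had no region assigned in SHP-1 KO cells. PECAM1, an endothelial adhesion protein, was the only one with both, with a promoter RPB1 fold of 4.32 and a pSer2 fold of 7.67. The neuronal gene SYN1 and the glial gene GFAP had pSer2 with RPB1 outside the promoter, and SNAP25 had 1 RPB1 region outside the promoter. By position, 2 of the 19 genes had pSer2 over the span and 2 had RPB1 over the span or 1 kb upstream. Some of these assigned regions thus lay outside the gene.

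pSer2 was spread over more regions than RPB1. The pSer2 regions covered 54.6 Mb of the genome and the RPB1 regions 31.8 Mb, with 15.0 Mb in common, which is 27.5% of the pSer2 bases and 47.3% of the RPB1 bases. The median region was 357 bp for pSer2 and 423 bp for RPB1. The highest fold enrichment was 39.5 for pSer2 and 146 for RPB1, with medians of 3.80 and 5.62. Long regions were more frequent for pSer2, with 191 regions of 10 kb or longer against 54 for RPB1. The lists of the WT cells had the same order, with 67.6 Mb for pSer2 and 37.8 Mb for RPB1.

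RPB1 regions were met by a pSer2 region more often than pSer2 regions by RPB1. Of the RPB1 regions, 24210 of 41605 were overlapped by at least 1 bp (58.2%, 57.7 to 58.7). Of the pSer2 regions, 21137 of 81012 were overlapped by an RPB1 region (26.1%, 25.8 to 26.4). In WT cells the shares were 58.9% and 24.2%. With the pSer2 list trimmed to the number of RPB1 regions, the shares in SHP-1 KO cells were 47.0% and 35.2%. The overlap was mostly partial: when 50% of each region had to be covered, the shares were 12.4% and 6.38%. The share differed among annotation classes. RPB1 regions in 3′ UTRs were overlapped by pSer2 in 87.2% (86.0 to 88.3) and those just downstream of genes in 83.4% (81.2 to 85.4), against 52.0% (51.3 to 52.7) at promoters and 45.1% (43.6 to 46.6) at distal intergenic positions. In the other direction, 55.7% (55.0 to 56.3) of the promoter pSer2 regions and 11.8% (11.4 to 12.1) of the intron pSer2 regions were overlapped by RPB1.

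Strong regions were shared more often than weak ones. When the pSer2 regions were divided into 5 bins of equal size by fold enrichment, RPB1 overlapped 17.3% of the weakest bin and 54.4% of the strongest, which began at a fold of 4.92. For RPB1 the shares were 50.2% in the weakest and 65.9% in the strongest bin. The bins between did not increase evenly, with 15.7% in the second pSer2 bin and 57.1% in the fourth RPB1 bin after 61.4% in the third. Promoter RPB1 regions that pSer2 overlapped had a median fold of 14.2 and a median length of 1088 bp, and those it did not overlap had a median fold of 7.71 and a length of 539 bp. A longer region has more bases in which to be overlapped, and the part of region length in these shares was not tested.

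RPB1 regions were more frequent at promoters than in gene bodies, and pSer2 regions were more frequent in gene bodies. Promoters, which in the authors' annotation reach 1 kb to either side of a transcript start, held 47.4% (46.9 to 47.8) of the RPB1 regions and 25.1% (24.8 to 25.4) of the pSer2 regions. Gene bodies (UTRs, exons and introns) held 39.4% and 63.4%. Introns held 24.8% of the RPB1 and 43.2% of the pSer2 regions, and 3′ UTRs held 8.05% and 11.8%. Of the intron regions, 41.4% of those of RPB1 lay in the first intron, against 26.7% of those of pSer2. Distal intergenic regions made up 10.3% of the RPB1 and 8.34% of the pSer2 list. When only regions that overlap the transcript start were counted as promoter, the shares were 30.9% for RPB1 and 11.2% for pSer2. Counted by bases, promoters held 65.5% of the RPB1 and 32.0% of the pSer2 coverage.

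**Figure D1:**
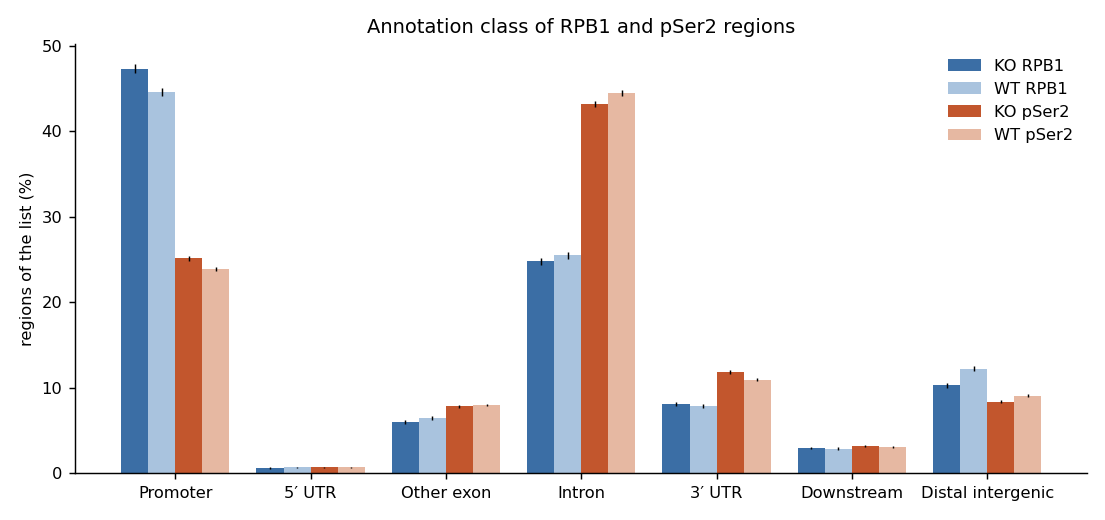
Share of regions (percent of the list, y axis) in each annotation class (x axis) for RPB1 and pSer2 in SHP-1 KO and WT cells, with 95% Wilson intervals as error bars. In both cell types the promoter bar is higher for RPB1 (47.4% in SHP-1 KO) than for pSer2 (25.1%), and the intron bar is higher for pSer2 (43.2%) than for RPB1 (24.8%).

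The distances of the summits gave the same order. RPB1 summits lay at a median of 181 bp downstream of the assigned start (quartiles −387 and 2856 bp), and pSer2 summits at a median of 1299.5 bp downstream (quartiles −1375 and 7614 bp). Within 1 kb of the start were 43.3% (42.8 to 43.8) of the RPB1 and 21.4% (21.1 to 21.6) of the pSer2 summits, and within 3 kb 64.6% and 39.8%. More than 5 kb downstream were 16.5% of the RPB1 and 33.0% of the pSer2 summits. The nearest start can be that of a neighboring or internal transcript, so these distances do not give the position along the host gene. At the 10250 promoter RPB1 regions that pSer2 overlapped, the pSer2 summit lay at a median of −2 bp from the RPB1 summit in the direction of the gene (quartiles −153 and 242 bp), so that there was no common shift to either side.

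Position along the gene was measured at 5117 protein-coding genes of at least 10 kb with no other protein-coding gene within 10 kb, by RefSeq position and without the assigned gene. At the gene start, 44.0% of these genes lay under an RPB1 region and 13.4% under a pSer2 region. Inside the gene the order was the opposite, with 1.23% under RPB1 and 3.63% under pSer2 at the midpoint. The pSer2 share was highest 1 kb past the gene end, at 15.3%, where RPB1 was at 2.72%. It was 5.20% at 5 kb and 2.74% at 10 kb past the end. In WT cells the pSer2 share was 14.8% at the start and 18.5% at 1 kb past the end, and the RPB1 shares were 46.4% and 2.83%. pSer2 thus had a narrow maximum at the start and a broad one beyond the end, and RPB1 had its maximum at the start alone with a small second one past the end.

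**Figure D2:**
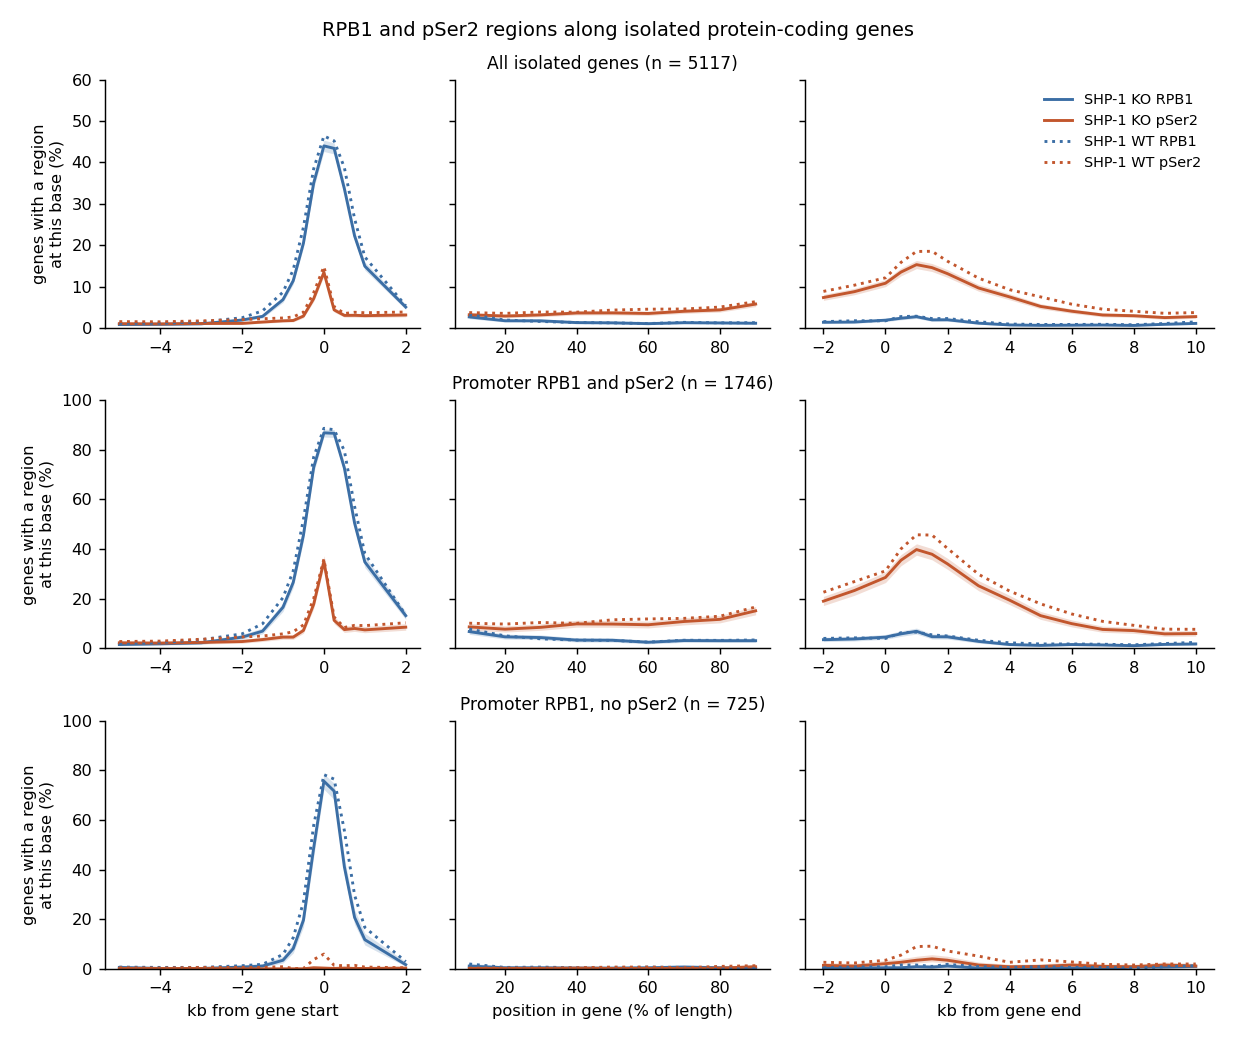
Percent of isolated protein-coding genes (y axis) with an RPB1 or pSer2 region at a base, around the gene start in kb (left), along the gene in percent of its length (middle) and around the gene end in kb (right), for all 5117 genes, the 1746 with promoter RPB1 and pSer2 and the 725 with promoter RPB1 and no pSer2. Solid lines are SHP-1 KO with 95% Wilson bands, dotted lines WT, and the y axis of the top row ends at 60%. At 1 kb past the gene end the pSer2 line stands above the RPB1 line in each row, at 15.3%, 39.8% and 3.45% from top to bottom against 2.72%, 6.87% and 0.828% in SHP-1 KO cells.

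Of the isolated genes, 1746 had both promoter RPB1 and pSer2 by the authors' assignment, and 39.8% of them lay under pSer2 at 1 kb past the end, against 6.87% under RPB1. The 725 genes with promoter RPB1 and no pSer2 lay under pSer2 in 3.45% at that base, which the choice of these genes largely fixes. The polyadenylation signal was about as frequent with and without pSer2 past the end, with overlapping intervals. AATAAA was found in the last 30 bases of 61.6% (58.1 to 64.9) of the 783 isolated genes with a pSer2 region 1 kb past the end, and of 58.8% (57.3 to 60.3) of the 4334 without one. Over all isolated genes it was 59.2%, and ATTAAA alone was found in a further 13.6%.

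By gene, 11827 genes had a promoter RPB1 region in SHP-1 KO cells, among them 10203 of the 20033 protein-coding genes of RefSeq (50.9%). Of the 11827 genes, 8871 also had a pSer2 region of any class (75.0%) and 2956 had none (25.0%). Among the genes with a pSer2 region, 1553 had no RPB1 region of any class (13.6% of 11433), and 1009 had RPB1 only outside the promoter. A further 623 genes had RPB1 outside the promoter and no pSer2. Protein-coding genes made up 88.9% of the genes with both, 78.5% of those with promoter RPB1 alone and 65.7% of those with pSer2 alone, in which miRNA genes were 11.5%. Of the protein-coding genes with promoter RPB1, 77.3% had an assigned pSer2 region. The genes with both had a median of 3 RPB1 and 4 pSer2 regions, and the genes with promoter RPB1 alone had a median of 1 RPB1 region.

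These classes rest on the nearest start, and counting by gene span changed them unequally. Over all RefSeq protein-coding genes, 61.7% had an RPB1 region over the span or 1 kb upstream and 46.9% had a pSer2 region over the span. Of the genes with promoter RPB1 and no assigned pSer2, 19.0% lay under a pSer2 region assigned elsewhere. Of the genes with pSer2 alone, 40.9% had an RPB1 region over their span or 1 kb upstream. Only 59.8% had a pSer2 region over their own span, whichever gene that region was assigned to. With both antibodies counted by RefSeq position, 10242 genes had both, 4480 had RPB1 within 1 kb of the start and no pSer2, and 1017 had pSer2 and no RPB1. With pSer2 counted by span and RPB1 by assignment, 3762 genes had pSer2 and no assigned RPB1. Strictly, 1373 of the 2319 protein-coding genes in the first class had no pSer2 region from 1 kb upstream to 10 kb past the end, while 207 of 1021 in the pSer2 class had pSer2 over the gene and no RPB1 over the gene or 1 kb upstream.

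The share of genes with pSer2 was higher where RPB1 at the promoter was stronger. In 5 bins by the strongest promoter RPB1 region it was 57.1%, 64.8%, 77.1%, 84.7% and 91.4% (90.2 to 92.5), from folds up to 8.96 to folds of 32.2 and more. Counted by span, the shares were 54.5% in the lowest and 89.0% in the highest bin. It was lower in the longest genes. Among protein-coding genes 81.1% (79.3 to 82.7) of those up to 9730 bp had pSer2, against 68.7% (66.7 to 70.7) of those of 86733 bp and more. The median top RPB1 fold was 12.0 in the genes with RPB1 alone and 21.5 in the genes with both. Protein-coding genes had a median length of 38862 bp in the former and 27411.5 bp in the latter. Within the genes with both, the folds of the antibodies had a Pearson correlation of 0.25 and a Spearman correlation of 0.19 across 8871 genes, which are not independent replicates and share each library.

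**Figure D3:**
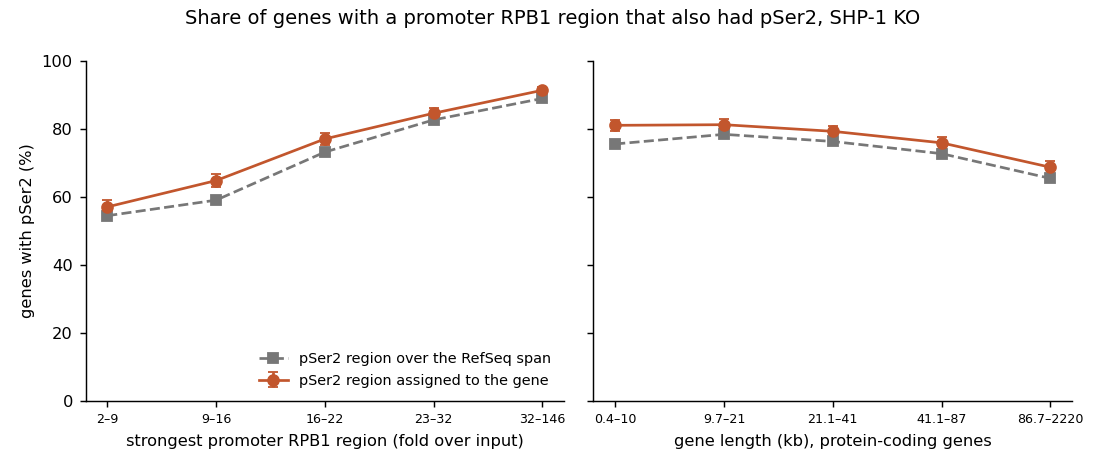
Percent of genes with a promoter RPB1 region that also had pSer2 (y axis) in 5 bins of equal size, by the fold of the strongest promoter RPB1 region (left) and by the length of protein-coding genes (right). Orange points count assigned pSer2 regions with 95% Wilson intervals and gray squares count pSer2 regions over the RefSeq span. Both lines go up from left to right in the left panel, from 57.1% to 91.4% for assigned regions, and go down in the 3 longest bins of the right panel.

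The strongest pSer2 region was often at the end of the gene. Of 8803 genes with both and a known strand, 41.4% (40.3 to 42.4) had the summit of the strongest pSer2 region in the last 20% of the gene or beyond its end, and 27.6% beyond the end. In the same genes, 6.27% (5.78 to 6.80) had the strongest RPB1 region there, and 58.4% had it in the first 20%. These genes were chosen for an RPB1 region at the promoter and a pSer2 region of any class, which largely fixes the position of RPB1, so nothing is read from the contrast of the antibodies here. Upstream of the gene were 21.9% of the strongest pSer2 and 26.4% of the strongest RPB1 summits.

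The promoters of the classes were compared in RefSeq sequences that reach from 250 bases before to 50 after the start. Such a sequence was found for 1865 of 2316 protein-coding genes with RPB1 alone, 6564 of 7878 with both and 815 of 1021 with pSer2 alone on chromosomes 1 to 22 and X. The ETS core was in 32.0% (30.9 to 33.1) of the promoters with both, 24.9% (23.0 to 26.9) of those with RPB1 alone, 27.4% (24.4 to 30.5) of those with pSer2 alone and 22.8% of all 15812 promoters. The GC box was in 71.1% of the promoters with both, 72.8% of those with RPB1 alone and 58.5% of all. CCAAT boxes were in 37.3%, 36.2% and 36.3%. TATAAA, searched on the strand of the gene alone and only in its window, was in 1.81% (1.52 to 2.17) of the promoters with both, 0.965% (0.611 to 1.52) of those with RPB1 alone, 2.45% of those with pSer2 alone and 3.59% of all. The other motifs were searched on both strands and may overlap one another. The median ratio of observed to expected CpG was 0.85 with both, 0.82 with RPB1 alone, 0.78 with pSer2 alone and 0.76 over all promoters. A match describes these letters and is no evidence of binding.

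Among genes with promoter RPB1 alone, the strongest protein-coding gene was SLC16A10, with a fold of 74.3, higher than or equal to 99.8% of the RPB1 list, and a weaker second region (6.80) just downstream. Its WT fold was 88.7. UBE2D1 had a fold of 67.4 in SHP-1 KO and 105 in WT cells, and HBEGF 65.4 and 82.9. The HBEGF region was 743 bp long, from −0.248 to 0.494 kb around the start, and the rest of the 13.8 kb gene held no region of either antibody. These 3 genes had no assigned pSer2 region in WT cells either. ABHD5, an activator of triglyceride breakdown, and RNASEH2A, a subunit of RNase H2, had RPB1 folds of 64.5 and 62.3 without pSer2 in SHP-1 KO cells, and pSer2 folds of 4.83 and 3.05 in WT cells. The read-through gene ZNF664-RFLNA (69.3) lay under a pSer2 region assigned to another gene. Outside protein-coding genes, the strongest were LOC101927666 (107), MIR5188 (85.5) and LOC101927932 (71.1). Among the strict genes, chosen after their values were seen, TPST2, FIGNL1 and FTCDNL1 had RPB1 folds of 49.1, 48.8 and 47.7 and no assigned pSer2 in either cell type.

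P4HB, which forms disulfide bonds in the endoplasmic reticulum, had the strongest pSer2 region of the protein-coding genes with both, with a fold of 36.4 in SHP-1 KO and 24.3 in WT cells. Its strongest RPB1 regions of the promoter class had folds of 30.1 and 37.2, but they lay over the end of the gene. In SHP-1 KO cells the start of P4HB lay under the RPB1 region of 26.5 kb assigned to ARHGDIA (90.4). ARHGDIA, a GDP-dissociation inhibitor whose gene lies next to P4HB, had pSer2 folds of 34.9 and 25.9. FTH1, the ferritin heavy chain, had 32.8 and 34.2. RBP4, the carrier of retinol in plasma, had 32.3 and 23.8, and RBP4 also had one of the strongest RPB1 regions (105 and 104). MAP3K12, a kinase, had pSer2 folds of 31.2 and 15.3. LOC105372440 had 33.2 and 29.7 by assignment, although in SHP-1 KO cells no region of either antibody lay over this gene of 433 bp. Outside protein-coding genes MIR6515 (39.5), SNHG1 (30.2) and MIR6797 (29.9) led. MIR6515 and MIR6797 are 57 and 72 bp long, while their strongest assigned pSer2 regions were of 8959 and 3636 bp. The pSer2 fold of MIR6515 was 8.17 in WT cells, but there its strongest assigned region was a shorter interval of 2310 bp. These folds thus do not compare the same interval.

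The leading genes with pSer2 alone lay at RPB1 regions assigned to other genes. The pSer2 folds were 32.1 at RAB26, 21.8 at ZNF34, 16.2 at IL17C, 15.3 at FKBP2, 15.0 at SOX9 and 14.7 at TMED5. Within 1 kb of RAB26 lay an RPB1 region of 8965 bp with a fold of 34.3 assigned to SNHG19. At ZNF34 the RPB1 region (42.2) was assigned to RPL8, and at SOX9, a developmental transcription factor, the region of 7605 bp (38.8) was assigned to SOX9-AS1. The regions at FKBP2 (38.6), TMED5 (24.5) and IL17C (20.1) were assigned to LOC105369340, CCDC18 and CYBA. Each of these 6 genes thus had a region of both antibodies over it or within 1 kb. Of the 170 isolated genes with pSer2 alone, 45.9% lay under an RPB1 region at the start. Of the other genes of this class, MIR1248 (28.8), SNORD36C (19.8) and SNORD83A (18.9) led. These genes are 106, 68 and 95 bp long, and the pSer2 regions assigned to them were of 7920, 5191 and 10504 bp. Among the genes with pSer2 over the span and no RPB1, chosen after their values were seen, TLL2 (10.8), CST7 (10.7) and CSF1R (10.2) had the highest folds.

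pSer2 was broken into many regions over a few long genes. GMDS, an enzyme of GDP-fucose synthesis, held 563 pSer2 regions in SHP-1 KO cells that covered 346 kb of the 622 kb gene, 538 of them in introns, with a median fold of 3.42 and a highest fold of 6.63. The same gene held 6 RPB1 regions, which covered 2.08 kb. In WT cells GMDS had 502 pSer2 and 2 RPB1 regions. RELN held 325 pSer2 and 21 RPB1 regions, EHBP1 261 and 4, MAP4K4 180 and 6, and FRAS1 162 and 2. The WT counts of pSer2 regions were 423 at RELN, 297 at EHBP1, 165 at MAP4K4 and 74 at FRAS1. The counts of regions depend on where the caller breaks a broad signal.

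Long single regions lay over parts or the whole of other genes. The longest pSer2 region, of 58.0 kb and a fold of 23.3, lay over KCNQ1OT1, an imprinted antisense RNA. NKD1, a negative regulator of Wnt signaling, had one of 56.5 kb, and GPC3, a glypican characteristic of liver tumors, one of 51.2 kb from its start into the gene. APOB, the main apolipoprotein of low-density lipoprotein, carried a pSer2 region of 43.2 kb and the longest RPB1 region, of 43.5 kb, both reaching over the whole gene of 42.6 kb. A further region of each antibody, of 3503 bp for pSer2 (20.9) and 3098 bp for RPB1 (38.5), lay past the end of APOB. Next in length among pSer2 regions was HNRNPC (30.7 kb). The next RPB1 regions lay at ARHGDIA (26.5 kb), BPIFB2 (22.7 kb), HERPUD1 (20.3 kb) and ALB (18.9 kb). At ALB the pSer2 region of 19.2 kb ran from −0.131 to 19.1 kb from the start, past the end of the 17.2 kb gene.

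**Figure D4:**
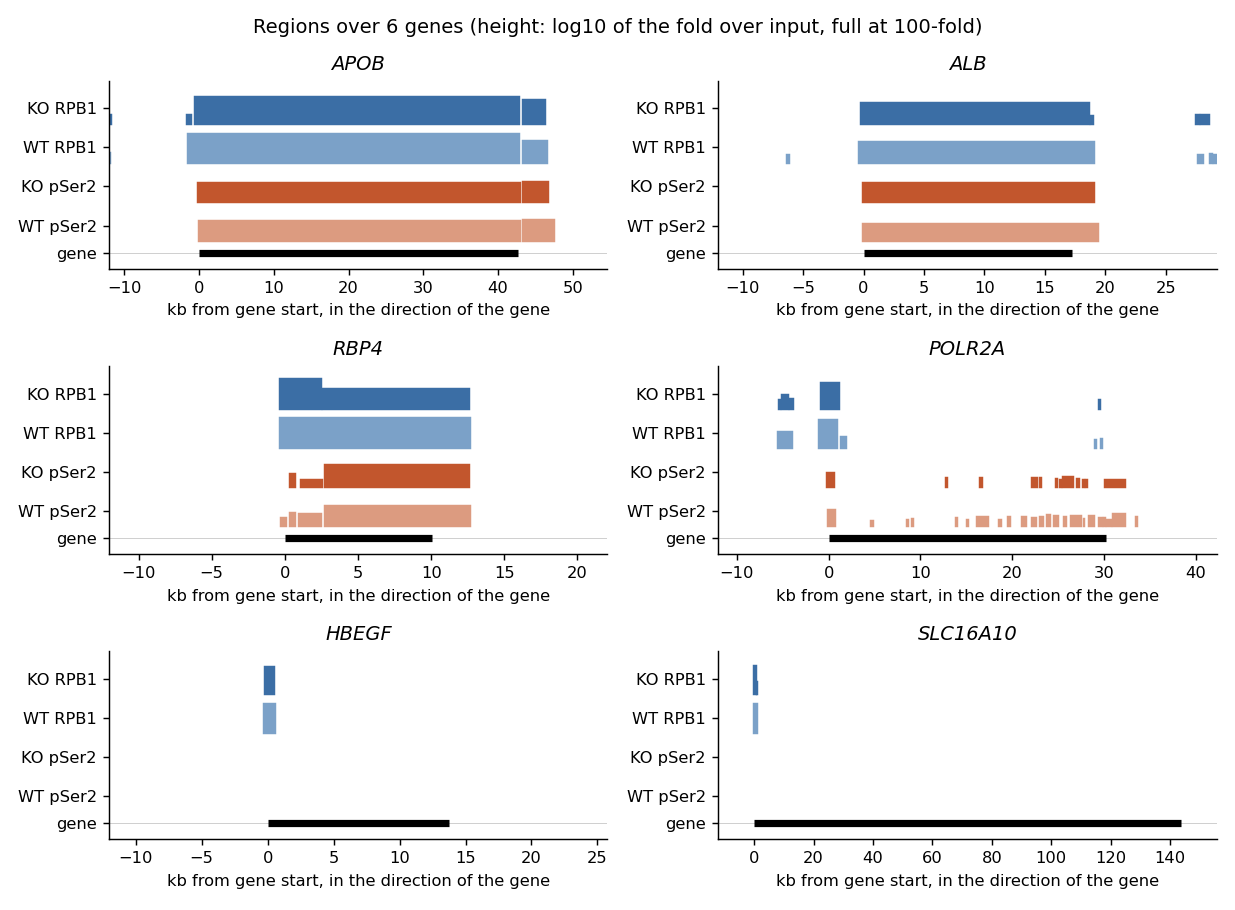
Regions of RPB1 (blue) and pSer2 (orange) in SHP-1 KO and WT cells at 6 genes, with position in kb from the gene start in the direction of the gene (x axis) and a row for each list (y axis), where the height of a box is the log10 of its fold over input (full at a fold of 100) and the black bar is the gene. APOB and ALB are covered by both antibodies from start to end, RBP4 has its strongest pSer2 region (32.3) toward and past the end, POLR2A has scattered pSer2 regions, and HBEGF and SLC16A10 have RPB1 at the start alone.

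The rank of a gene often differed between the lists. The largest excess of RPB1 over pSer2 was at IFT88, a protein of intraflagellar transport, with an RPB1 fold of 52.8 (98.8% of the RPB1 list as high or lower) and a pSer2 fold of 2.31 (1.67% of the pSer2 list). STXBP6 had 41.9 and 2.13, C2orf15 37.7 and 2.07, ETV6 43.4 and 2.46, and OARD1 44.9 and 2.57. In WT cells the pSer2 folds of these 5 genes were between 2.41 (C2orf15) and 5.33 (IFT88). The genes were chosen by their SHP-1 KO ranks, and their WT pSer2 ranks were higher. The share of the WT pSer2 list as high or lower was 85.6% at IFT88 and 82.6% at OARD1. It was 42.3% at STXBP6, 33.5% at ETV6 and 3.04% at C2orf15. The largest excess of pSer2 was at CCT5, a subunit of the TRiC chaperonin, with an RPB1 fold of 2.99 and a pSer2 fold of 15.7 in the 3′ UTR class. An RPB1 region of 2150 bp over the start of CCT5, with a fold of 26.0, was assigned to ATPSCKMT and is not counted in the rank of CCT5. CRLS1 (3.21 and 10.5), ENC1 (3.58 and 17.1), BRD8 (3.56 and 11.5) and U2SURP (3.01 and 7.33) followed.

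Gene lists chosen by function are given by their counts, beside the 75.0% of all genes with promoter RPB1 that had pSer2. Liver plasma protein genes had both in 18 of 18 genes with promoter RPB1 (100%, 82.4 to 100), out of 21. Their median top pSer2 fold was 15.7, against 5.67 for all genes with both. The pSer2 folds were 29.4 at AHSG (WT 34.2), 25.1 at AMBP (WT 39.6), 24.2 at AFP (WT 24.7) and 18.9 at SERPINA1 (WT 28.7). APOA1 and APOA2 had pSer2 alone by assignment (9.46 and 14.0), with pSer2 over the span and RPB1 over the span or 1 kb upstream. HP, haptoglobin, was the only member without a region of either antibody, and had a WT RPB1 fold of 4.70. Liver transcription factor genes had both in 11 of 11 (100%, 74.1 to 100, which includes the share of all genes), out of 13. Among them pSer2 was strong at FOXA3 (20.2) and weak at FOXA1 (3.71), where the RPB1 fold was 61.3. CEBPA had the highest RPB1 fold of the list, 133, with a pSer2 fold of 15.4.

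The genes of RNA polymerase II and of the factors that act on it are given in the same way, beside the 75.0% of all genes. RNA polymerase II subunit genes had both in 10 of 10 (100%, 72.2 to 100), out of 12, with POLR2I and POLR2J without an assigned region. By position, all 12 had RPB1 over the span or 1 kb upstream, and 11 had pSer2 over the span. POLR2A, which encodes RPB1 itself, had an RPB1 fold of 56.2 and 12 pSer2 regions with a highest fold of 9.70 (WT 70.5 and 12.8). Of 12 tail kinase genes and partners with promoter RPB1, 10 had pSer2 (83.3%, 55.2 to 95.3), out of 17 genes. That interval and those of the other lists in this paragraph include the share of all genes. CDK12 had an RPB1 fold of 35.0 and 61 pSer2 regions, and CDK13 had 34.2 and 18. LARP7 and ELL had promoter RPB1 (8.01 and 15.5) and no pSer2, with WT pSer2 folds of 3.30 and 3.87, although a pSer2 region assigned elsewhere lay over LARP7. CDK9, CCNT2 and CCNK had pSer2 without assigned RPB1, with RPB1 regions over their spans or 1 kb upstream. Pausing and elongation factor genes had both in 11 of 12 (91.7%, 64.6 to 98.5), all but NELFE (RPB1 4.53), over which a pSer2 region assigned elsewhere lay. The tail phosphatase genes had both in 3 of 4 (75.0%, 30.1 to 95.4), out of 6, with SSU72 at 18.2 and 9.37. CTDSPL had promoter RPB1 of 9.63 and no assigned pSer2, although all 6 genes had pSer2 over the span.

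Cytosolic ribosomal protein genes had both in 61 of 65 genes with promoter RPB1 (93.8%, 85.2 to 97.6), and all 79 genes of the list had pSer2 over the span and RPB1 over the span or 1 kb upstream. Among the 4 without assigned pSer2 were RPL3, RPL17 and RPL23, with RPB1 folds between 5.62 (RPL17) and 27.1 (RPL23). The strongest pSer2 folds of the list were 29.9 at RPL37, 26.9 at RPL19 and 26.0 at RPL27A, with WT folds of 5.43, 16.5 and 8.17. These genes were chosen by their SHP-1 KO fold, so nothing is read from their lower WT folds. Other members had the opposite order, among them RPL13 (5.68, WT 18.0) and RPL15 (9.58, WT 17.7). Heat shock protein genes had both in 13 of 14 (92.9%, 68.5 to 98.7, which includes the share of all genes). Their pSer2 folds included 28.0 at HSPD1, 19.0 at HSPA5 and 15.8 at HSPA8. HSP90AB1 was the exception, with an RPB1 fold of 42.1 and no assigned pSer2 region in SHP-1 KO cells, and 43.9 and 8.37 in WT cells. pSer2 lay over the span of HSP90AB1 all the same. p53 target genes had both in 12 of 12 (100%, 75.8 to 100), out of 15, with CDKN1A at 60.6 and 15.3.

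Immediate early genes had both in 12 of 14 genes with promoter RPB1 (85.7%, 60.1 to 96.0, which includes the share of all genes), out of 21. Their median top RPB1 fold was 53.1, against 21.5 for all genes with both, and their median top pSer2 fold was 8.31. KLF6 (111 and 20.9), MCL1 (57.8 and 18.5) and MYC (54.4 and 17.2) had the highest pSer2 folds among these 12. EGR1 had 76.7 and 10.0, and FOS 32.1 and 5.11. NR4A1 had an RPB1 fold of 22.3 and no pSer2, against 45.4 and 4.01 in WT cells, and EGR2 had 7.50 and no pSer2, against 5.67 and 5.03.

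Genes of families whose RNAs are typically not polyadenylated also carried pSer2. Histone genes made with DNA replication had both in 27 of 32 genes with promoter RPB1 (84.4%, 68.2 to 93.1), out of 69, with pSer2 folds of 15.4 at H2BC4, 15.2 at H4C11 and 14.5 at H1-2. Of the list, 29 genes had no assigned region, and many lie side by side, so that a region over one could be assigned to another. Spliceosomal and U7 small nuclear RNA genes had both in 17 of 19 (89.5%, 68.6 to 97.1), out of 33. This interval and that of the histone genes include the share of all genes. The small nuclear RNA genes had a median RPB1 fold of 58.0 and a median pSer2 fold of 19.2, the highest medians of the lists here. RNU1-1 (72.3 and 27.0), RNU12 (76.6 and 26.4) and RNVU1-15 (71.3 and 26.2) led by pSer2, followed by RNU7-1 (68.2 and 24.5). Several of these genes exist in near-identical copies, among which reads may be divided. All of these genes with both had the strongest pSer2 region in the promoter class, which for genes shorter than 1 kb includes the end as well, against 44.3% of all genes with both. H2BC4 is longer, with a RefSeq span of 10757 bp.

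Of 10 gluconeogenesis genes, 5 had promoter RPB1 and all 5 had pSer2 (100%, 56.6 to 100, which includes the share of all genes). PCK1, which encodes the rate-limiting enzyme, had no region of either antibody in SHP-1 KO cells, and folds of 6.96 for RPB1 and 7.25 for pSer2 in WT cells. PC had RPB1 and pSer2 folds of 23.8 and 7.47, FOXO1 46.5 and 5.87, and PPARGC1A 13.7 and 4.45. G6PC1, FBP1 and FBP2 had no assigned region in SHP-1 KO cells, and PCK2 had pSer2 (5.65) with RPB1 outside the promoter. By position, 7 of the 10 genes had pSer2 over the span and 6 had RPB1 over the span or 1 kb upstream. By assignment, 4 genes had no region in SHP-1 KO cells, against 1 in WT cells, where 7 had both. PTPN6 itself had an RPB1 fold of 17.2 and a pSer2 fold of 5.24 at its promoter (WT 24.0 and 4.03), which does not measure the SHP-1 protein and is no check of the knockout.

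**Figure D5:**
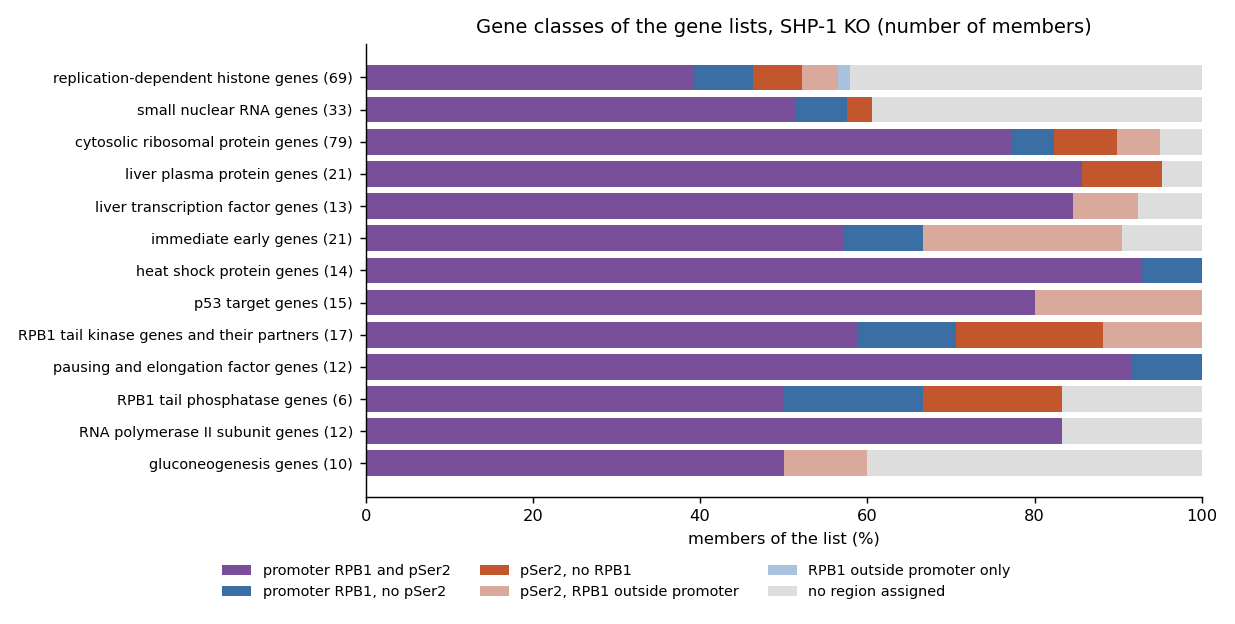
Share of the members of each gene list (x axis, percent) in each gene class of SHP-1 KO cells, with the number of members after the name of the list (y axis). Promoter RPB1 with pSer2 is the largest class of each list plotted except the histone genes, where 27 of 69 had both and 29 had no assigned region (gray). The gray part is also large for the gluconeogenesis genes (4 of 10) and the small nuclear RNA genes (13 of 33).

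In WT cells, the genes with both were mostly in the same class. Of the 8871 genes, 8212 had both in WT cells (92.6%, 92.0 to 93.1). Of the 2956 genes with promoter RPB1 alone in SHP-1 KO cells, 1711 were in that class in WT cells (57.9%, 56.1 to 59.7) and 1021 had both there. Of the 1553 with pSer2 alone, 1040 had pSer2 alone in WT cells (67.0%, 64.6 to 69.3). The WT pSer2 list holds more regions than the SHP-1 KO list, and the part of list size in these counts was not tested.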

How the data were processed

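For each genotype of HepG2 cells, SHP-1 WT or KO, 1 RPB1 and 1 pSer2 ChIP-seq library were sequenced, besides 2 input libraries, which were not analysed here. The authors used Trimmomatic for trimming, BWA for alignment to hg38 and MACS2 for narrow peaks, called per library over the matching input (versions not given in the sources used here). The deposited lists give the fold over input (a ratio), the −log10 p-value and q-value, a score, and an annotation with the nearest gene. A deposited table of the authors' own comparison of KO with WT, with its p-values and window counts, was not used. Members and lists were chosen with earlier results of these data known. The lists hold no read counts, so the depth is unknown and no test was run.

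Regions were compared by overlap of at least 1 bp, gene classes by the assigned gene, and positions by RefSeq (GRCh38.p14) spans, with strands from RefSeq or GENCODE release 44. Promoter and gene-end sequences came from RefSeq and hg38. Named genes were the leading genes of each class by fold (6 protein-coding and 3 others), the 5 with most pSer2 regions, the 5 longest regions of each list, the 5 largest rank differences in each direction, members of the gene lists, and PCK1, PTPN6 and POLR2A, and some list members are not reported here. The overlap and class functions were checked on simulated data. Alternatives were a −log10 q-value of at least 5, equal numbers of regions, other overlaps, merging within 1 kb, chromosomes 1 to 22 and X, other distances and promoter rules, and genes by span. Python 3.11.15, pandas 2.3.3 and NumPy 2.4.6 were used.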

Additional observations from a re-analysis of the deposited data

How the results depend on the processing

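Of 55 values under the alternatives, 30 stayed within the interval of the reported share or within 1.5 times the reported count, and 25 moved. In the overlap, promoter and summit shares the order of the antibodies was the same under each alternative run for both. With regions kept from a −log10 q-value of 5, RPB1 overlapped 31.7% of the pSer2 regions and pSer2 52.5% of the RPB1 regions, promoters held 57.8% of the RPB1 and 30.9% of the pSer2 regions, and 53.1% and 25.2% of the summits lay within 1 kb of the start. With equal numbers of regions the overlaps were 35.2% and 47.0%, the pSer2 promoter share was 28.8%, its summit share 23.4%, and 43.3% of the strongest pSer2 regions lay in the last 20% of the gene or beyond. When 50% of each region had to be covered, the overlaps were 6.38% and 12.4%, and with regions merged within 1 kb 32.2% and 55.5%. Counting only regions that overlap the start gave promoter shares of 30.9% and 11.2%. By the distance of the region, 47.4% and 25.1% lay within 1 kb of the start, and within 3 kb by the summit 64.6% and 39.8%. With pSer2 counted by gene span, 3762 genes had pSer2 and no RPB1. With both antibodies counted by position, 1017 did, and 4480 had RPB1 at the start and no pSer2. Against the transcript of the file, 38.8% of the strongest pSer2 regions lay in the last 20% of the gene or beyond. The cause was not tested. The rules on gene start, both by position, and the transcript of the file were added after seeing the data. No interval was listed more than once and all promoter regions lay within 1 kb, so those alternatives gave the reported values. No paired analysis was possible because each antibody has 1 library per cell type and no result comes from a test. Depth is unknown, so a missing region does not show that a gene lacks pSer2.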
